A study of Mus musculus with 22 samples.

Results

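Ribosome-bound RNA was set beside total RNA in control Purkinje cells (PCs), the GABA-releasing output neurons of the cerebellar cortex. The members were the 8 control libraries of 22 libraries in the series, chosen by their genotype and treatment labels. The 5 total RNA libraries came from sorted PCs of Tsc1+/+ mice carrying L7Cre and L7GFP, taken at postnatal day 21 or 42 and collected as GFP-positive, propidium iodide-negative cells from papain-dissociated cerebellum. The 3 TRAP libraries (translating ribosome affinity purification) came from Tsc1+/+ mice carrying L7Cre and Rosa26fsTRAP, in which Cre switches on the ribosomal protein RPL10A fused to EGFP, and RNA was pulled down with anti-GFP beads from homogenate of the whole cerebellum of 1 animal per library. The labels give the background of all animals as C57BL/6, none of the 8 was treated with rapamycin, and the age of the TRAP animals is not given in the sources used here. Mutant libraries, set beside the controls below, came from Tsc1fl/fl mice carrying L7Cre with L7GFP (sorted) or Rosa26fsTRAP (TRAP). In these mice Cre removes Tsc1 in PCs. Rapamycin-treated TRAP libraries are used only where named as such. L7 is the promoter of Pcp2, a PC gene, so both assays mark cells by where that promoter has been active. Sorted libraries 144a and 144b bear 1 animal number in their labels, so the 5 sorted libraries stand for 4 animal numbers. They were kept apart, and SD and SE over 5 libraries are therefore partly technical. With the pair averaged to 1 value, the SE of the centred difference was 1.09 times as large at the median of 82 named genes and at most 1.26 times.

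TRAP recovers transcripts that are sitting on tagged ribosomes, which in a neuron includes those in the dendrites and the axon. Sorting recovers all polyadenylated RNA of the cell bodies that survive dissociation, nuclear RNA included, together with that of any cell or debris collected with them. Tsc1 restrains mTORC1, a kinase that promotes translation, and the controls described here have the gene intact. Genes expected at high levels in PCs include those for calcium release and buffering, since PC dendrites fire calcium spikes, and those for making and loading GABA.

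The values were estimated fragments per assembled locus, scaled to 1 size factor per library and set separately in each table, so the level of a gene in TRAP and in total RNA cannot be compared directly. For each locus the difference of mean log2(value + 1), TRAP minus total RNA, was taken and the median over all loci passing the filters was subtracted. The result is called the centred difference: a locus at 0 differed between the assays as much as the median locus, and 1 is 2-fold above that. Of 66494 loci, 16264 had a mean of at least 5 in total RNA, 9442 a mean of at least 2 in TRAP, and 9094 passed both. The median subtracted was -6.97. No test was run across the tables. A locus was called higher or lower where its centred difference was at least 1 in size and the libraries of the 2 assays did not overlap after the shift. Of the loci passing both filters, 1518 were called higher in TRAP (16.7%) and 1635 lower (18.0%). Because a locus also had to reach 2 in TRAP, only loci with a total RNA mean above 9.97 could be called lower. Above that limit the share of calls still changed with level. Of passing loci with a total RNA mean of 10 to 12, 13.7% were called higher and 10.4% lower. From 12 to 14 the shares were 8.07% and 34.1%, and from 14 they were 5.53% and 59.9%. The cause of that change was not tested.

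The TRAP libraries were much the shallower. Taking the most frequent low value of a library as 1 fragment, the TRAP libraries held 4901628 to 6380042 fragments and the sorted libraries 62841793 to 86255391, and the 10 most abundant loci, none of which the sources name, took 62.2% to 62.7% of TRAP signal against 6.10% to 7.46% of sorted signal. Over loci passing both filters, Pearson's r was 0.673 to 0.802 between TRAP libraries and 0.845 to 0.970 between sorted libraries, with library 45 the least like the rest of its group. Gene symbols came from the study's supplementary lists, which were drawn up on genotype effects. The 839 named loci that passed were therefore no random sample, and their median was 0.28, with 26.6% called higher and 16.2% lower.

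Markers of PCs lay above the median locus. Of 16 marker genes, 15 passed both filters, 12 were called higher (16.7% of all loci were) and none lower, and the median centred difference was 1.69 against 0 for all loci, or 1.68 without sorted library 45. The filters bore on this count: the marker left out, Skor2, a transcriptional corepressor of PCs, fell just short in total RNA with a mean of 4.49 ± 1.04 (SD, n = 5) and had 4.57 ± 0.29 (SD, n = 3) in TRAP. On the other side of that limit, Clvs2 entered with a total RNA mean of 5.09, and Shisa4 entered with a TRAP mean of 2.01.

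The highest of the markers passing both filters was Calb1 (GRCm38 chr4:15881264-15908064, plus strand), which encodes the calcium buffer calbindin and is the classical label of PCs. Its log2 level in total RNA was 14.50, 14.21, 14.30, 14.53 and 13.80 in libraries 45, 48, 144a, 144b and 176, and 10.65, 10.50 and 10.79 in the TRAP libraries. The libraries of each assay lay close together, and the centred difference was 3.35 ± 0.16 (SE), or 10.2-fold. Car8, an inhibitor of IP3 binding to its receptor (chr4:8143362-8239041, minus strand), had a centred difference of 2.80 ± 0.22, with every TRAP library above every total RNA library after the shift. The LIM homeobox factors Lhx5 and Lhx1, which specify PCs and are retained in them, had centred differences of 3.20 ± 0.27 and 3.11 ± 0.49.

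A second tier of markers differed less. Hes3, a bHLH repressor, had a centred difference of 2.39 ± 0.42, and Grid2ip, a postsynaptic scaffold, 2.38 ± 0.35. Homer3, the scaffold joining metabotropic glutamate receptors to calcium stores, had 1.93 ± 0.34. Slc1a6, the PC glutamate transporter EAAT4, had 1.69 ± 0.34, with sorted library 176 the low one in total RNA at 11.37 against 12.31 to 12.55 in the other 4. Itpr1 (1.60 ± 0.26), Rgs8 (1.11 ± 0.25) and Inpp5a (1.03 ± 0.21) were also called, and with quantile normalization Itpr1 and Rgs8 changed sign, to -0.38 and -0.35.

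Pcp2, the gene whose promoter drives Cre and GFP, was not called. Its total RNA levels ran from 16.21 to 17.28 and its TRAP levels were 11.00, 10.46 and 10.99. After the shift all TRAP libraries lay above all sorted libraries, but the centred difference of 0.83 ± 0.27 was under the limit of 1. Gng13, a G protein subunit, had 0.94 ± 0.30 and was likewise under the limit with no overlap. Of the 15 markers, 14 lay above 0 and 1 below it.

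**Figure D1:**
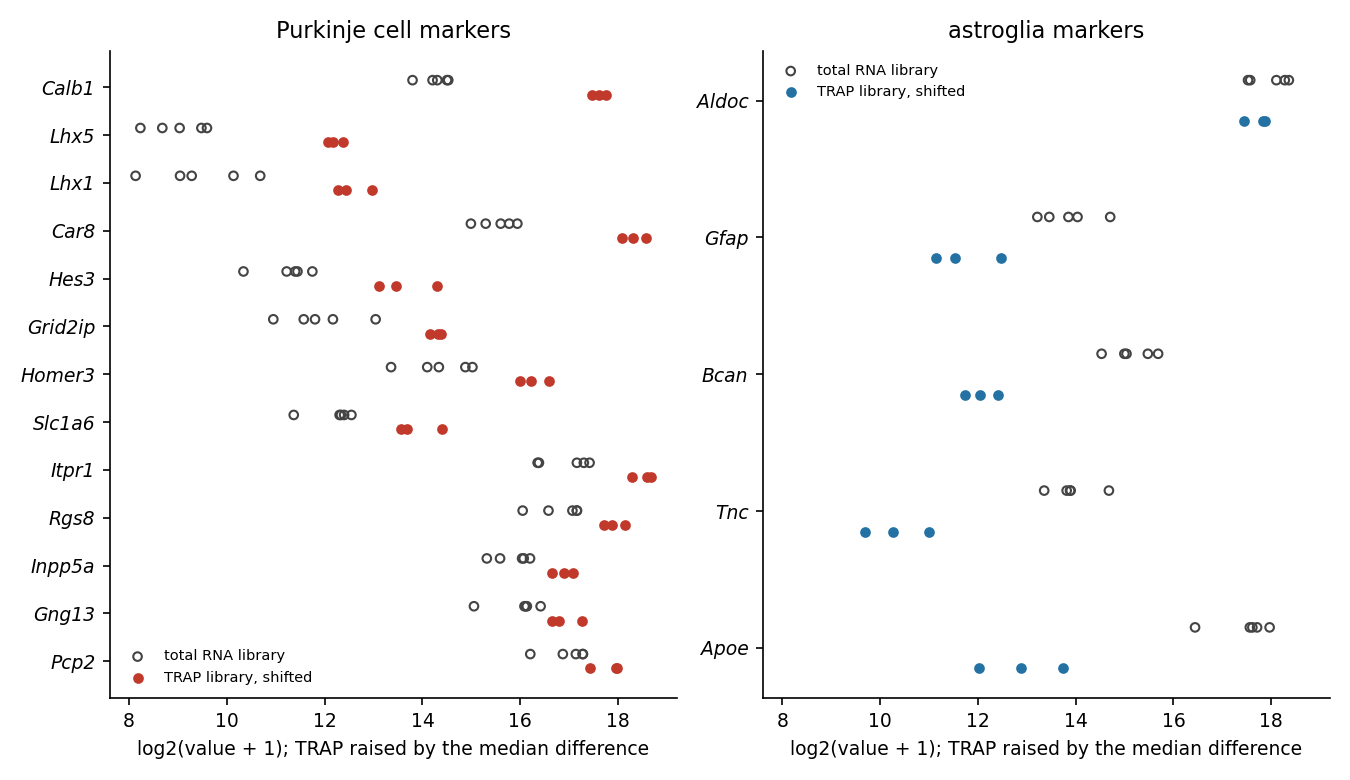
Level of 13 PC markers (left) and 5 astroglia markers (right) that passed both filters, as log2(value + 1) on the horizontal axis, with 1 point per control library and TRAP values raised by the median difference of all loci. Filled TRAP points lie to the right of open total RNA points for the 13 PC markers drawn and to the left for the astroglia markers Gfap, Bcan, Tnc and Apoe.

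Genes for GABA went the same way as the markers where they could be measured. Gad1, which encodes the GABA-synthesising enzyme GAD67 (chr2:70553072-70602014), had 12.91, 12.46, 12.14, 12.22 and 11.89 in total RNA and 7.95, 8.46 and 7.59 in TRAP. Its centred difference was 2.64 ± 0.31. Slc32a1, the vesicular GABA transporter (chr2:158610767-158615748), varied more in total RNA, from 7.48 in library 176 to 9.95 in library 45, and had 3.55 ± 0.50. Gad2, the gene of GAD65, was listed at 0 in all 3 TRAP libraries although total RNA held it at 9.62 to 10.50. Tomm70a, a mitochondrial import receptor that cells in general use, was also listed at 0 in all 3 against 12.33 to 13.04 in total RNA, so a TRAP value of 0 may be a failed estimate and gives no fold.

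Astroglia markers lay at the other end. Of 7 markers, 5 passed both filters, 4 were called lower (18.0% of all loci were) and none higher, and the median centred difference was -3.08. Their total RNA means lay from 13.86 upward, a level at which lower calls took 34.1% (12 to 14) or 59.9% (14 and above) of loci. Apoe, the lipid carrier secreted by astroglia (chr7:19696109-19699188, minus strand), was among the most abundant named loci of total RNA, at 16.44, 17.61, 17.97, 17.71 and 17.56, but had only 5.92, 6.77 and 5.06 in TRAP. Its centred difference was -4.57 ± 0.56. Tnc, a matrix glycoprotein, had -3.61, Bcan, the proteoglycan brevican, -3.08 and Gfap, the astroglial filament protein, -2.13. Aldoc, which encodes zebrin II and is made by bands of PCs as well as by astroglia, was the exception at -0.25 ± 0.23, with overlapping libraries. Gpc5 and Sox2 did not reach the TRAP filter, although total RNA held them at 9.22 to 10.87 and 11.26 to 12.23. Their TRAP values were 0, 0.92 and 0 for Gpc5 and 0.89, 0 and 3.60 for Sox2.

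Oligodendroglia, microglia and myeloid, and vascular markers, of cells without L7 activity, were low or listed at 0 in TRAP. All of them but Fgr (3.01) and Cd300lg (3.18) had a total RNA mean of at least 5. None of 3 oligodendroglia, 19 microglia and myeloid, or 6 vascular markers passed the TRAP filter. A low level in total RNA makes that outcome common for any gene, so the count was repeated over markers with a total RNA mean of at least 10, where 17.4% of all 8717 loci had a TRAP mean under 2 and 2.64% were listed at 0 in all 3 libraries. At that level 9 of 9 microglia, 4 of 4 vascular and 2 of 2 oligodendroglia markers had a TRAP mean under 2, against 2 of 7 astroglia and 0 of 13 PC markers. Listed at 0 throughout were 4 of the 4 vascular and 3 of the 9 microglia markers, values that may be failed estimates as for Tomm70a. In a count added after the data were seen, over loci of that level with at least 1 TRAP library above 0.1, 5 of 5 microglia and 2 of 2 oligodendroglia markers had a TRAP mean under 2, against 14.6% of 8431 loci, and no vascular marker could be counted.

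Csf1r, the growth factor receptor of microglia, had 12.89 to 14.90 in total RNA and 2.61, 2.05 and 0 in TRAP. C1qc, a complement subunit made by microglia, had 10.84 to 13.72 in total RNA. It was listed at 0 in every TRAP control library and had a mean of 2.09 in the 3 mutant ones. Flt1, a VEGF receptor of endothelial cells, had 11.73 to 13.42 and Cd34, a sialomucin on vessels, 11.46 to 13.10, and both were listed at 0 in the TRAP controls. In the mutant TRAP libraries Flt1 had a mean of 2.15 and Cd34 1.20. Of 22 genes of motile cilia, none reached 10 in total RNA and only Dnaic2, an axonemal dynein chain, passed both filters, at 0.50 ± 0.49. In bulk libraries, fewer cells of a type and less RNA per cell cannot be told apart.

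**Figure D2:**
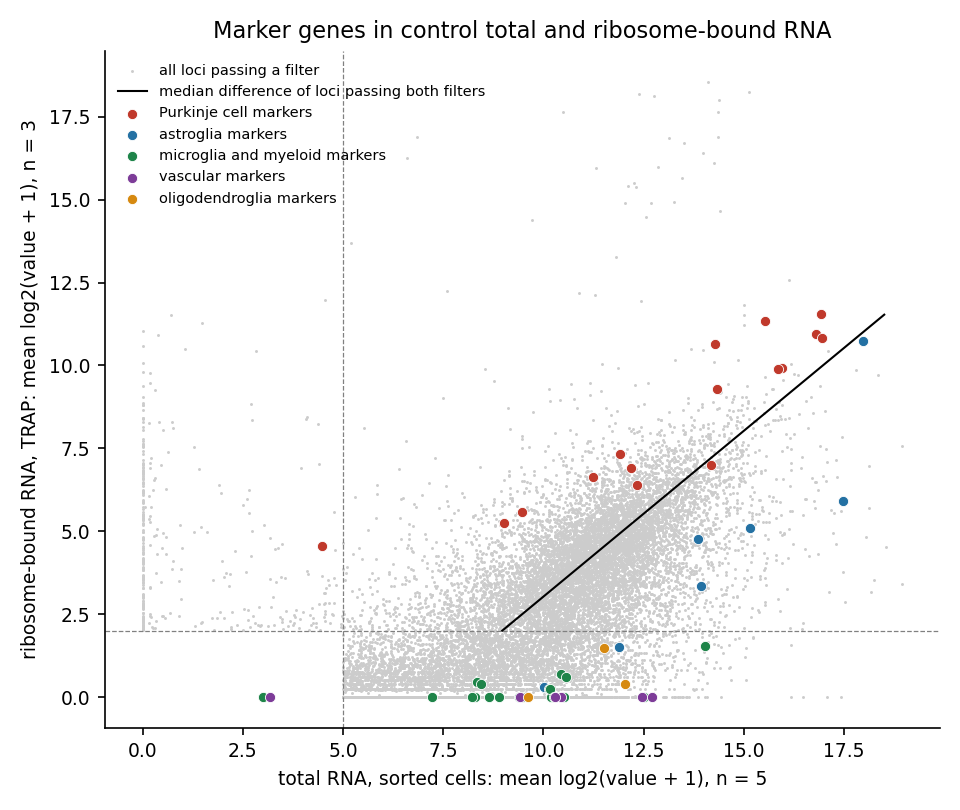
Mean level of each locus in total RNA (horizontal, 5 libraries) and in TRAP (vertical, 3 libraries), as log2(value + 1), with dashed lines at the filters of 5 and 2 and a black line at the median difference of -6.97. PC markers lie above the line except 1, astroglia markers on or below it, and vascular markers along the bottom at 0.

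Ratios within a library, which no scaling touches, gave the same order. The summed values of the 16 PC markers were 6.05 to 10.1 times those of the 7 astroglia markers in the TRAP libraries and 0.916 to 2.35 times in the sorted libraries. Calb1 stood at 13.4 to 55.0 times the value of Apoe in TRAP and at 0.0735 to 0.260 times in total RNA. Library 45 gave the highest ratio of the sorted group in both cases, and no sorted library reached the lowest TRAP library. How far glial RNA in the sorted fraction moved the centred differences of other genes was not tested.

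Calcium genes outside the marker list were nearer to the median locus. All 11 genes of calcium release and buffering passed both filters, 6 were called higher (16.7% of all loci and 26.6% of named loci were) and none lower, with a median of 1.03; 5 of the 6 were the PC markers already given (Calb1, Car8, Homer3, Itpr1 and Inpp5a). The other was Calm3, a calmodulin gene, at 1.27 ± 0.19. The pumps Atp2b2 and Atp2a3, which clear calcium into the outside and the reticulum, had 0.73 ± 0.33 and 0.66 ± 0.30. Plcb3, a phospholipase that makes IP3, had -0.39 ± 0.60 and the channel Orai2 had -0.46 ± 0.93, and the TRAP libraries were far apart for Orai2, at 1.43, 2.05 and 4.36.

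Genes of the postsynaptic density and the glutamate receptors had a median of 1.19. Of 18, 17 passed, 9 were called higher and 1 lower, where 16.7% of all loci and 26.6% of named loci were called higher. This list is not separate from the PC markers, since it holds Homer3, already given as called. Iqsec3, an exchange factor of inhibitory synapses, was the highest at 2.53 ± 0.34. Shisa6, an AMPA receptor partner, had 2.29 ± 0.20, and the scaffolds Dlg2 and Shank1 had 1.19 ± 0.26 and 1.24 ± 0.27. Shank2, a further scaffold of this density, had 0.48 ± 0.33: its total RNA varied from 13.79 in library 176 to 15.68 in library 45, while TRAP stayed between 8.12 and 8.49. Cnih2, an AMPA receptor subunit of the cornichon family, was the member called lower, at -1.40 ± 0.34.

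Channels had a median of 1.23, with 13 of 17 passing, 6 called higher (16.7% of all loci and 26.6% of named loci were) and none lower. Cacna2d2, a calcium channel subunit whose loss causes ataxia in mice, was the highest at 3.06 ± 0.31. Cacna1g, a T-type calcium channel, had 2.39 ± 0.32. Cacnb3 was the lowest at -0.46 ± 0.38.

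Vesicle cycle genes had a median of 0.58, with 12 of 13 passing, 3 called higher and none lower, a share of higher calls near the 26.6% of all named loci. Doc2b, a calcium sensor of vesicle release (chr11:75768966-75796049, minus strand), stood apart from the rest of the list. It had 10.78, 9.77, 10.26, 8.85 and 8.50 in total RNA and 7.73, 7.30 and 7.63 in TRAP, and its centred difference of 4.89 ± 0.44 was 29.6-fold. Syt7, a slow vesicle calcium sensor, and Dnajc6, which uncoats clathrin vesicles, were the other members called, Syt7 at 1.58 ± 0.50, and complexin 1 (Cplx1) had 0.47 ± 0.21.

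**Figure D3:**
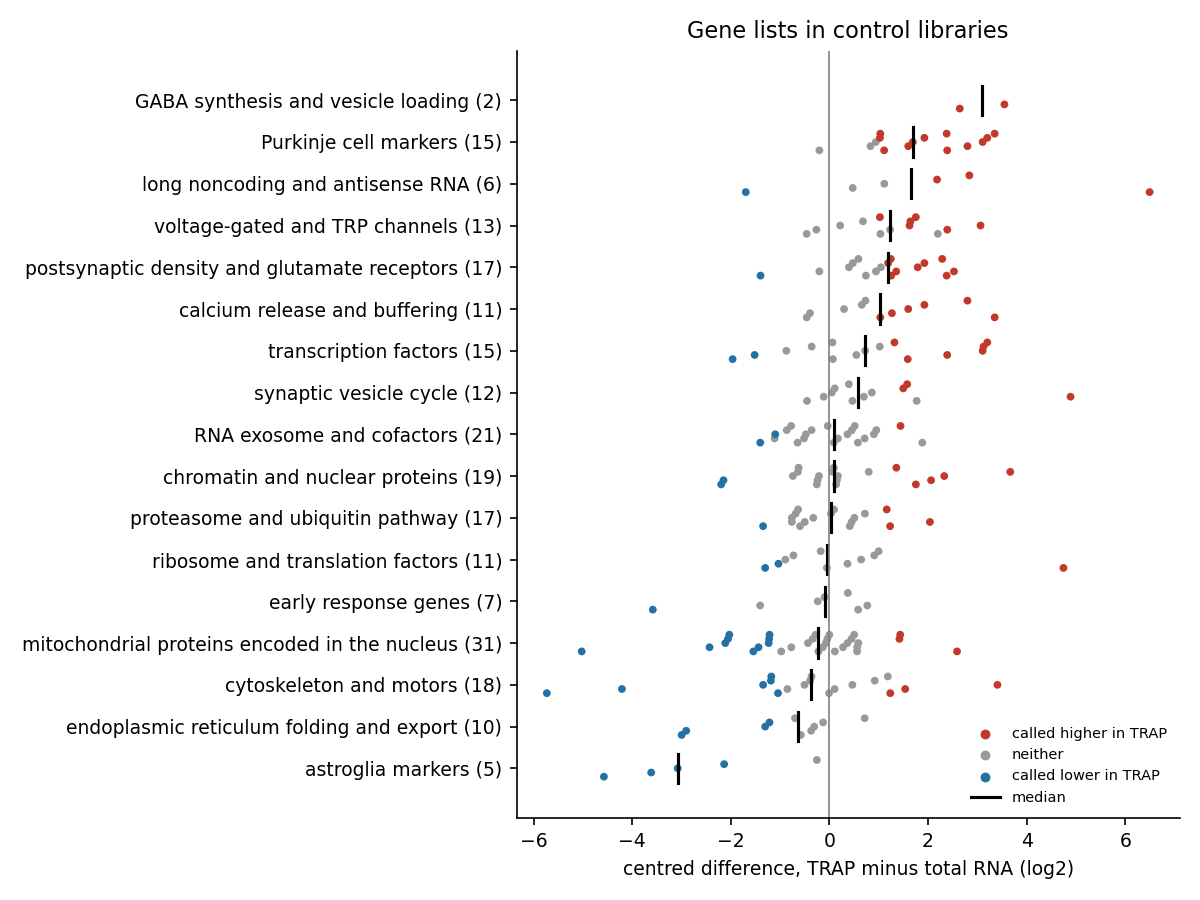
Centred difference of each gene that passed both filters, on a log2 scale, in 17 lists ordered by their median (black bars), with the number of genes in brackets and calls in colour. Medians of the neuronal function lists lie right of 0, and those of most housekeeping lists lie near it. Genes of the calcium, postsynaptic, vesicle and channel lists lie on both sides of 0. Astroglia markers lie furthest left with a median of -3.08.

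Transcription factors spread widely. Of 25 genes, 15 passed, 6 were called higher (26.6% of named loci were) and 2 lower (16.2%), with a median of 0.72. Foxp4, a forkhead factor, had 3.12 ± 0.41, close to Lhx1 and Lhx5, PC markers that this list also holds, as it does Hes3. Rora, the nuclear receptor mutated in staggerer mice, which lose PCs, had 0.72 ± 0.24. Klf9, a Krüppel-like factor, was the lowest at -1.96 ± 0.22. Early response genes are those whose RNA climbs within minutes of stress or activity. Of 11, 7 passed and only Dusp1 was called, as lower, where 18.0% of all loci were. It had 12.28 to 13.92 in total RNA and 0.89, 4.21 and 2.72 in TRAP, a centred difference of -3.58 ± 1.02, and the list median was -0.10.

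Genes used by all cells stayed near the median locus in most lists. The proteasome and ubiquitin list had a median of 0.03 with 3 of 17 higher and 1 lower, the RNA exosome list 0.09 with 1 of 21 higher and 2 lower, and chromatin genes 0.09 with 5 of 19 higher and 2 lower. Of named loci 26.6% were called higher and 16.2% lower, and the chromatin count of higher calls is near that share. Psmg4, a proteasome assembly chaperone, had 2.04 ± 0.20 and the ubiquitin shuttle Ubqln1 had -1.34 ± 0.09. Cdk16, a kinase of neurons that belongs to none of these lists, had -0.75 ± 0.24 and was not called. The exosome nuclease Dis3 had 0.51 ± 0.29, and its cofactor Skiv2l, a helicase of the cytoplasmic exosome, had -1.10 ± 0.15. Within the chromatin list, Ep400, a remodelling ATPase, had 3.67 ± 0.29, whereas Hmgb1 and H3f3b, a DNA-bending protein and a histone H3.3 gene, had -2.20 ± 0.37 and -2.15 ± 0.26.

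Translation genes had a median of -0.05, with 1 of 11 called higher and 2 lower, the latter near the 18.0% of all loci. The outlier was Eef1a2, the elongation factor isoform of neurons and muscle (chr2:181147653-181157014, minus strand). Its total RNA ranged from 10.02 in library 176 to 12.83 in library 45, its TRAP values were 9.32, 9.59 and 8.75, and its centred difference was 4.75 ± 0.64. Pabpc1, the poly(A)-binding protein, and Rplp0, a ribosomal stalk protein, were called lower, at -1.30 ± 0.28 and -1.03 ± 0.19. The ribosomal protein gene Rps16 had 0.91 ± 0.31 and was not called.

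Mitochondrial and secretory genes had medians below 0. Of 33 nuclear genes of mitochondrial proteins, 31 passed, 3 were called higher and 10 lower, with a median of -0.22. Lower calls took 18.0% of all loci and 16.2% of named loci. The median total RNA mean of the list was 11.77, and 10.4% of loci from 10 to 12 were called lower. The shares at higher levels, given above, were larger. Ucp2, an uncoupling protein, was the lowest at -5.02 ± 0.61, and Pink1, a kinase that flags damaged mitochondria, had -2.43 ± 0.22. On the other side, Timm8b, an import chaperone, had 1.42 ± 0.13 and Mrm3, a methyltransferase of mitochondrial rRNA, 2.59 ± 0.27. Of 12 genes of endoplasmic reticulum folding and export, 10 passed, none was called higher and 4 lower, with a median of -0.64, and the median total RNA mean of 12.74 lies where 34.1% of loci were called lower. These were the export GTPase Sar1b (0.125-fold) and Selenon (-2.90 ± 0.31), followed by Hspa5, the chaperone BiP (-1.30 ± 0.18), and the ribosome receptor Rrbp1 (-1.22).

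Of 18 cytoskeletal genes that passed, 3 were called higher and 6 lower, with a median of -0.38. The median total RNA mean of the list was 13.85, and the count of lower calls is near the 34.1% of all loci from 12 to 14. Nefm, the medium neurofilament, had 3.41 ± 0.53, and the tubulin-binding protein Stmn3 1.54 ± 0.34. The microtubule genes Map4 and Kif5c had -1.34 ± 0.22 and -1.18 ± 0.36. Mapre1, which binds microtubule plus ends, had -4.21 ± 0.84, and its TRAP libraries disagreed, at 0.89, 3.19 and 3.53.

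Among all named loci the lowest was Tmsb4x, the actin-sequestering thymosin beta 4 (chrX:167207093-167209315, minus strand). It had 16.72 to 17.51 in total RNA and 4.63, 5.32 and 3.87 in TRAP, a centred difference of -5.73 ± 0.44, or 0.0188-fold. The other 11 lowest were Mt1 (-5.58), Gatm (-5.53), Ucp2 (-5.02), Col9a3 (-4.72), Laptm4a (-4.59), Apoe (-4.57), Shisa4 (-4.56), Tmem88b (-4.53), Itih3 (-4.30), B2m (-4.29) and Mapre1 (-4.21). Mt1, a metallothionein, varied between sorted libraries from 15.62 to 17.96. Gatm, a creatine synthesis enzyme, and B2m, the light chain of MHC class I, are made by glial or vascular cells too. These 12 had total RNA means of 13.53 or more, and their calls follow a level at which lower calls were common: of loci with a total RNA mean of 14 or more, 347 were called lower and 32 higher.

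The 12 highest had total RNA means of 5.09 to 11.44. They were AA474408 (6.55), Dancr (6.49), Galnt17 (6.04), Ddx23 (6.03), Ncapd2 (5.75), Mdfi (5.29), Doc2b (4.89), Eef1a2 (4.75), Sema4g (4.50), Tmem38b (4.36), Tbc1d13 (4.24) and Clvs2 (4.22). Dancr, a long noncoding RNA that hosts snoRNAs (chr5:74093060-74095406), had 8.38, 6.57, 6.10, 6.09 and 5.31 in total RNA and 6.25, 5.41 and 6.39 in TRAP, with library 45 the high one. Ncapd2, a condensin subunit, was at 9.59 to 10.89 in total RNA and 8.61 to 9.17 in TRAP, and Tmem38b, a potassium channel of the reticulum, at 10.50 to 10.71 and 7.65 to 8.58. The centred difference went down with level: its median was 2.93 for passing loci with a total RNA mean of 5 to 8, 0.87 from 8 to 10, -0.01 from 10 to 12, -0.62 from 12 to 14 and -1.49 from 14. The TRAP filter, which 10.3% of loci met in the lowest of these ranges, selects high differences there.

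Coding length of the nearest reference transcript had little relation to the centred difference. That transcript can be shorter than the full transcript of a gene: its coding length was 127 bases for Gad1 and 366 for Homer3. A relation with the full coding length of genes was therefore not tested. Over 731 named protein-coding loci with a GENCODE coding length, Spearman's rho was 0.07, a description across genes that share the same 8 libraries. The median centred difference was 0.14 among the 244 shortest coding sequences, 0.21 among the 243 in the middle and 0.47 among the 244 longest.

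Small structured RNAs made up most of the named loci that met the TRAP filter but not the total RNA filter. Of 71 named loci that met only the TRAP filter, 33 were nuclear rRNA, 12 snoRNA, 10 snRNA and 2 scaRNA loci, while 4 were protein-coding, Skor2 among them, and 3 antisense. The named loci included 33 nuclear rRNA loci, 14 snoRNAs, 12 snRNAs and 2 scaRNAs. Of the nuclear rRNA loci, 32 were compared by sequence, and n-R5s25 was left out of that comparison. In total RNA none of these met the filter of 5. The sequences of a Y RNA and a snoRNA of each main class are shown as 1 example of each kind, not as the loci with the largest difference; they come from GENCODE vM21 on GRCm38. Capitals mark the closing run of T in Rny3, the C box TGATGA and D box CTGA in Snord32a and the last ACA in Snora30, 3 bases from its end. Read on the given strand, TGATGA followed by CTGA was in 4 of the 14 snoRNA loci and ACA in that place in 7.
Rny3: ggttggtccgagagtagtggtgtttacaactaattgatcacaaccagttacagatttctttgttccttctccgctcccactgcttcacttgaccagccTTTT
Snord32a: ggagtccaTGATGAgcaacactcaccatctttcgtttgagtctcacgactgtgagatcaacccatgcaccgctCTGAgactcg
Snora30: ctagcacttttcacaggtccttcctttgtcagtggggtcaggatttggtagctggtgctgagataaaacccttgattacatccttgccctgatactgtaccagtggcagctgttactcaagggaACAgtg

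Rny3, a Y RNA that binds the Ro protein (chr6:47781624-47781725, plus strand), had 2.05, 1.41, 1.74, 2.24 and 0 in the sorted libraries and 11.70, 10.03 and 12.10 in TRAP on the scale of each table. The nuclear rRNA loci had TRAP means of 3.89 to 11.0, and 30 of the 33 were listed at 0 in every sorted library. Since 14 of the 32 nuclear rRNA loci compared share a run of 20 bases, reads could be split among them and single loci are uncertain. Rnu12 and Rnu11, RNAs of the minor spliceosome, had TRAP means of 9.27 and 8.31. Snord17, a C/D box snoRNA, had 8.29 and Snora30, an H/ACA snoRNA (chr7:127527874-127528003, plus strand), 6.78. The named small loci together took 0.297% to 0.527% of TRAP signal and 0.00110% to 0.00354% of sorted signal. Small loci that the supplementary lists do not name were not counted. The labels name a SmartSeqv4 kit for the series, and the study states that its sorted and TRAP libraries were prepared differently, so library preparation and ribosome binding cannot be told apart here.

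MicroRNA loci gave both patterns. Mir3068 (chr12:87437679-87437757, minus strand) had 5.23, 4.31 and 5.06 in TRAP and 1.36 or 0 in the sorted libraries. Mir6363 (chr16:50727132-50727245, plus strand) had 9.28 to 11.08 in every sorted library and was listed at 0 in every TRAP library. These values count fragments of the precursor locus, not the mature microRNA. The mature sequences, from RefSeq on GRCm38.p6 with the seed (bases 2 to 8) in capitals, differ in their seeds.
mmu-miR-3068-5p: uUGGAGUUcaugcaaguucuaacc
mmu-miR-3068-3p: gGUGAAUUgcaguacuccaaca
mmu-miR-6363: uGUAGACUggacuguccucaaa

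**Figure D4:**
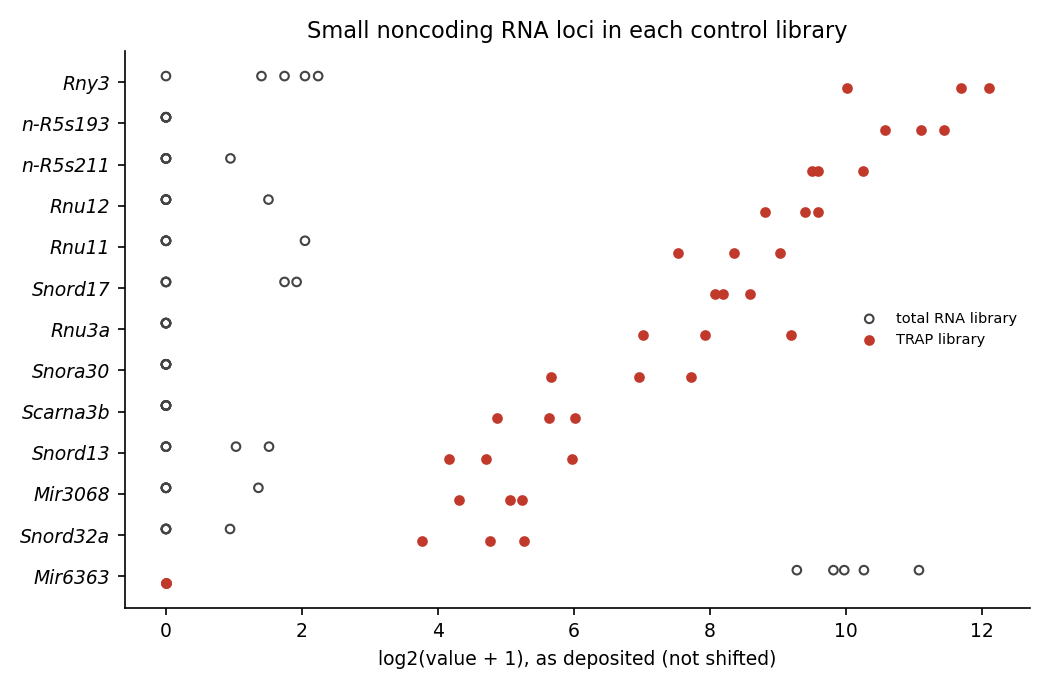
Level of 13 small noncoding RNA loci, as log2(value + 1) without the shift, with 1 point per control library. TRAP points lie from 3.76 upward for 12 loci whose total RNA points lie at or below 2.24, and Mir6363 shows the reverse with TRAP at 0.

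Of 15 long noncoding and antisense RNAs, 10 reached 5 in total RNA and 6 passed both filters. At low levels few loci of any kind passed, 10.3% with a total RNA mean of 5 to 8 and 41.1% from 8 to 10. Of the 6, 3 were called higher and 1 lower, where 26.6% and 16.2% of named loci were. Besides Dancr, Dhx58os and Dlx4os had centred differences of 2.84 and 2.18. Sox2ot, which overlaps Sox2, had -1.70 ± 0.11. The antisense transcript B930036N10Rik was listed at 0 in all sorted libraries and had a TRAP mean of 6.72. Whether reads were counted by strand is not given in the sources used here, so an antisense RNA and its partner cannot be told apart.

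The same difference was computed in the Tsc1 mutant libraries, 3 TRAP and 5 sorted, which share no library with the controls. Over 8499 loci passing in both genotypes, Pearson's r between the centred differences was 0.895, a description across loci. Of 1413 loci called higher in controls that also passed in mutants, 1148 (81.2%) were called higher there, which was 60.5% of the 1897 mutant calls among loci passing in both. Over all loci tested in mutants, 21.6% were called higher and 21.2% lower. Of 1531 called lower, 1183 (77.3%) were lower there, 69.1% of the 1713 lower mutant calls among loci passing in both. Single lists were less alike. The astroglia median was -1.36 in mutants, with 4 passing and 2 called lower, against -3.08 in controls. Of 19 microglia and myeloid markers, none of which passed in controls, 13 passed in mutants. Their median there was -0.68, with 2 called higher and 2 lower. The PC marker median was 4.03 in mutants, with 14 of 15 called higher and 1 lower, against 1.69 in controls, and Calb1 had 5.04 against 3.35. Its mean in total RNA was 12.46 in mutants and 14.27 in controls and its TRAP mean was 10.64 and 10.65. The difference between genotypes was not tested here.

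**Figure D5:**
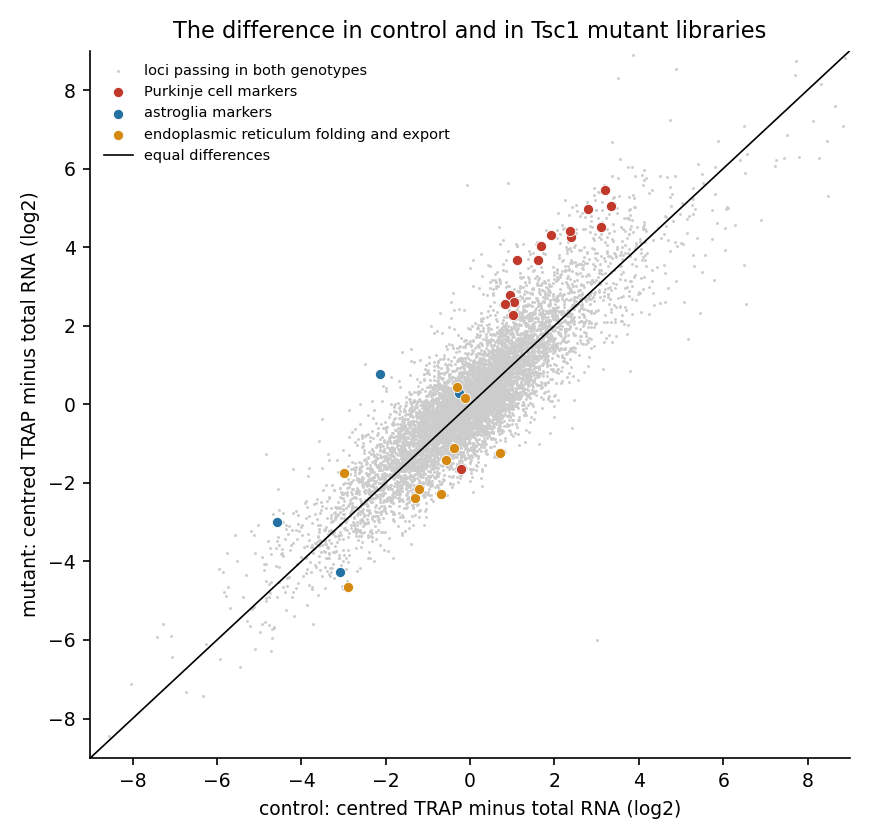
Centred difference of each locus in controls (horizontal) and in Tsc1 mutants (vertical), on a log2 scale, with the line of equal differences; 25 loci beyond 9 on an axis are not drawn. Of the PC markers 14 lie above the line and 1 below it, and loci as a whole follow the line with r of 0.895.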

How the data were processed

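The deposited values of both tables are a signal: fragments per locus that the authors estimated with Cufflinks 2.2.1 and divided by 1 size factor per library, after Trimmomatic 0.39 and STAR 2.7.0f on GRCm38, with versions from the submitters' processing notes. TRAP reads were counted on the assembly of the sorted cells. Of values above 0.1, 61.8% to 72.6% in sorted and 87.7% to 90.9% in TRAP libraries were whole multiples (within 0.01) of the most frequent value, so no count test was used.

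Values were taken as log2(value + 1), averaged per assay and centred (pandas 2.3.3). Errors of centred differences are SE from 5 sorted and 3 TRAP libraries. Because the tables were scaled separately, no test was run between them. The calling rule was tested on simulated data with 200 loci changed 4-fold: 169 were recovered, and 3.11% of unchanged loci were called. The simulation gave all unchanged loci 1 common shift and treated the 5 sorted libraries as independent. It did not reapply the filters or include the change of the difference with level. The 3.11% is therefore no estimate of the share of false calls in the data.

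The genes named were the 12 highest and 12 lowest called loci, 3 members of each list, all PC marker and calcium genes, Shank2, Cdk16 and Dis3, leaving out symbols of the Gm, Rik, AC and CT kind; others were named after their values were seen. Some members are not reported here by name but count in the totals of their lists. Members, lists and alternatives were chosen with earlier results of these data known. Symbols came from supplementary lists at class code = or j, biotypes and lengths from GENCODE vM21, which held 1826 of 1832 reference transcripts. Coding length of the nearest reference transcript stood in for protein length.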

Additional observations from a re-analysis of the deposited data

Results flagged for a closer look

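In 8 named genes, 1 of the 5 sorted control libraries lay far from the other 4 by Dixon's test; chance alone flags about 1 group in 20. Library 45 was the low library for Tmsb4x (16.72), Apoe (16.44), Hmgb1 (12.37) and Tmem38b (10.50). Library 176 was low for Slc1a6 (11.37), Gng13 (15.05) and Plcb3 (11.82), and library 144a for Hbs1l (11.87). Without library 45, the counts of loci called higher and lower were 1809 and 1810.

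Genes listed at 0 in all 3 control TRAP libraries had signal in TRAP libraries outside the comparison. Gad2 had a mean of 5.75 in the 3 rapamycin-treated mutant libraries. It had 5.10, 0 and 5.62 in the untreated mutant libraries and 4.64, 0 and 0 in the rapamycin-treated control libraries. Tomm70a had a mean of 6.11 in the 3 untreated mutant and 5.53 in the 3 rapamycin-treated mutant libraries. In the rapamycin-treated control libraries Tomm70a had 0, 5.15 and 0. In sorted libraries, mt-Rnr2, the large mitochondrial rRNA, was listed at 0 in all 5 controls and in 2 of 5 mutants, and had 19.52 or more in the other 3 mutants.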

How the results depend on the processing

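The scaling mattered most. With equal library totals and no centring, the median of all loci was -2.62, 101 loci were called higher and 7731 lower, and the PC marker median was -1.14; relative to that shift the markers stayed above the median locus. For single genes, alternatives were listed for 82 named genes only, not for every gene given above. Of these 82, the genes called higher that fell below 0 with equal library totals were Rgs8 (-1.73), Slc1a6 (-1.14), Mrm3 (-0.29), Psmg4 (-0.75), Gad1 (-0.20), Car8 (-0.044), Hes3 (-0.45), Grid2ip (-0.47), Itpr1 (-1.24), Iqsec3 (-0.32), Dlg2 (-1.63), Inpp5a (-1.81), Calm3 (-1.57) and Homer3 (-0.92). With quantile normalization, Rgs8 (-0.35) and Itpr1 (-0.38) of the 82 changed sign. The counts higher and lower were 3953 and 3600 with no filter on low values, 847 and 851 with a stricter filter, and 752 and 802 at a centred difference of 2. Over loci with a total RNA mean of at least 10, an alternative added after the data were seen, 798 were called higher. With a pseudocount of 10 the PC marker median was 1.14. With any 1 library dropped, the counts were 1538 to 1835 loci higher, 1616 to 1883 lower and PC marker medians of 1.46 to 1.80. With 144a and 144b averaged, or with 1 sequencing submission of sorted libraries only, the counts and the marker median stayed within 1.5 times or 1 SD. For 82 named genes, 1288 of 1436 values under alternatives moved by less than 1 SD. The TRAP depth limits what a low or absent value can show. No paired analysis was possible because sorted and TRAP libraries share no replicate numbers and no test was run between them.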
